A study of Rattus norvegicus with 12 samples.

Results

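The nuclear genes of the mitochondrial respiratory chain and the Krebs cycle were examined in the lumbar mammary gland of young rats. The set held 44 genes chosen by name, 15 of complex I, 4 of complex II, 6 of complex III, cytochrome c itself, 6 of complex IV, 5 of the ATP synthase and 7 for other enzymes of the Krebs cycle. Of these, 42 were found among the 26456 gene names on the array, whereas no probe carried the names Cox6b1 and Idh3b. The data came from 12 one-colour Agilent rat arrays, each hybridised with labelled cRNA made from the total RNA of 1 female Wistar rat. NP rats were born to dams that received 17% protein throughout pregnancy and LP rats to dams that received 8.8% protein. All dams had standard chow while nursing, litters were cut to 6 females, and the young were weaned to the same chow. Glands of 3 NP and 3 LP rats were taken at day 21 of life and of 3 NP and 3 LP rats at day 28. The fourth and the fifth pair of glands were frozen after visible lymph nodes had been removed, so that ducts, fat, vessels and any adhering muscle were measured together. The 12 rats are referred to by group and by the number in their label, for example NP 5a of day 21.

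The inner mitochondrial membrane carries the respiratory chain. Complex I and complex II take electrons from NADH and succinate, complex III passes them on to cytochrome c, and complex IV hands them to oxygen. The proton gradient built on the way drives the ATP synthase. The Krebs cycle in the matrix supplies the NADH and succinate, and complex II belongs to both. A few subunits of complexes I, III and IV and of the ATP synthase are encoded in mitochondrial DNA. Products of both genomes meet in these complexes only. All genes described here lie in the nucleus. In mammary gland, the white fat of the pad, the ductal epithelium and any skeletal muscle differ in how many mitochondria they hold. Muscle and heart also use their own isoforms of a few subunits, among them Cox6a2 and Cox8b of complex IV.

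Several transcription factors are known to act on these genes, namely NRF1, GABP (also called NRF-2), YY1 and the oestrogen-related receptors (ERR). The letters of 1 short core motif of each were looked for on both strands of the windows from 250 bases before to 50 bases after the gene start, taken from RefSeq on rat build GRCr8. A window was found for 39 of the 44 genes. GCGCATGCG of NRF1 stood in 3 of the 39 (7.69%, against 1.52% of all 33469 windows), namely those of Uqcrc1, Cycs and Atp5o. CCGGAAG of GABP stood in 11 (28.2% against 8.75%), AAGATGGCG of YY1 in 6 (15.4% against 1.73%) and AAGGTCA of ERR in 3 (7.69% against 4.61%). The 6 YY1 matches all lay on the strand of the gene, between positions -1 and 26 from its start. Those letters include ATG, and whether they are starts of translation was not tested. The 33469 windows were not matched to the members in any way. In the 35 windows found for other subunits of the chain, the shares were 11.4% for NRF1, 31.4% for GABP, 11.4% for YY1 and 22.9% for ERR. A match is only a match of letters, and binding was not measured. Of the 8 windows of tissue isoforms and carriers that were also searched, CCGGAAG stood in those of Slc25a4 and Ckmt1b, and the other 3 motifs in 0. The windows below show a member with the NRF1 letters (Cycs), one with both NRF1 and YY1 letters (Uqcrc1) and one with GABP and ERR letters (Sdhd). The window of the muscle isoform Cox6a2, shown last, holds none of the 4. Windows of members such as Ndufa5 and Ndufa10 hold none of them either. Whether the motifs bear on how a gene follows muscle content was not tested. Capitals mark the motif letters on either strand.
Cycs, chr4:80984718-80985017, minus strand: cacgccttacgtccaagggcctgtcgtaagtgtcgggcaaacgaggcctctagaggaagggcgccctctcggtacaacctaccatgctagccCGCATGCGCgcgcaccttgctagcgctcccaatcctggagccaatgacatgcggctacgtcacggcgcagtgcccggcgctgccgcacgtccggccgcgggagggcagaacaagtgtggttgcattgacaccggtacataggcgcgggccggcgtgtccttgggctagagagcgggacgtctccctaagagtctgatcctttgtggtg
Uqcrc1, chr8:118467973-118468272, plus strand: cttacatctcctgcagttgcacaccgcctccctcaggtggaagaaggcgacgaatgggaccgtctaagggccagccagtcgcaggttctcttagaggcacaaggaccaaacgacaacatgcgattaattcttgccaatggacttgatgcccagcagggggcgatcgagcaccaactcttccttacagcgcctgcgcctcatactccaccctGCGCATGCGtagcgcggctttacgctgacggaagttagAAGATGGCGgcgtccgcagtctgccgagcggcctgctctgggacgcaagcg
Sdhd, chr8:59850592-59850891, minus strand: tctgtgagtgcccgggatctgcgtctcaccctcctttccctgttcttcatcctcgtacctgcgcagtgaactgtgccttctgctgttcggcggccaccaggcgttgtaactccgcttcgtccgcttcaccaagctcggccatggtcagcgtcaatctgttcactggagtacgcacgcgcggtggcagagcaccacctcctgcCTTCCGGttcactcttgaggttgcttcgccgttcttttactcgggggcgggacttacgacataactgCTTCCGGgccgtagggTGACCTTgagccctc
Cox6a2, chr1:192219667-192219966, minus strand: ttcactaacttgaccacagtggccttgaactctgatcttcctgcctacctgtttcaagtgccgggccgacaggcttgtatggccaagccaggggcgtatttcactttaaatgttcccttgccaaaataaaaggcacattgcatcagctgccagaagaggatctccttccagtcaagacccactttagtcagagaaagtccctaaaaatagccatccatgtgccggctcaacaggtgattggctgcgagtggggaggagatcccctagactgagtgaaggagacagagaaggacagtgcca

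Every value below is a log2 signal relative to the 75th percentile of the gene spots of its array, so that 0 is the level of a fairly bright spot and a difference of 1 is a 2-fold change. Each gene is represented by its brightest probe. Levels of different genes are not compared, since probes differ in brightness. All 42 members were well above background on all 12 arrays, and none of their values was missing. The 75th percentile was between 1451 and 2369.6 intensity units, and between 74.8% and 79.6% of gene spots were well above background. The p values came from limma, in 1 fit over the 4 groups, and were adjusted by the Benjamini-Hochberg method over the 23209 probes tested, and a gene is said to pass at an adjusted p under 0.05. The labels do not say which rats share a litter, so that the p values measure the spread between these rats only. All day 21 arrays lay on 1 slide and all day 28 arrays on another. Differences between LP and NP were therefore measured within a slide, whereas day and slide cannot be told apart. All NP arrays lay on row 1 of their slide, as did LP 4a of day 21 and LP 4f of day 28. The other LP arrays lay on row 2, so that diet and row were partly confounded.

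Some arrays stood apart in tissue content. The mean of the skeletal muscle genes Acta1 and Tnnc2, used as a muscle index, ran from -2.96 in LP 4f of day 28 to 4.18 in LP 6a of day 21, a 141-fold range. NP 6a of day 21 and LP 6f of day 28 were also rich in muscle, at 3.63 and 3.83. Acta1, the actin of skeletal muscle, was at 0.93, -0.45 and 3.22 in NP and -2.38, 3.84 and 0.05 in LP rats of day 21, and at -1.90, -0.46 and -0.09 in NP and -2.74, 3.22 and -2.25 in LP rats of day 28. Tnnc2, the troponin C of fast fibres, was at 2.30, 1.01 and 4.04 in NP and -3.26, 4.53 and 1.42 in LP rats of day 21, and at -0.29, 1.18 and 1.33 in NP and -3.19, 4.43 and -1.89 in LP rats of day 28. The diet groups overlapped in both genes on both days. The mean of 9 lymphocyte markers was -5.34 in LP 6a of day 21, where only 6 of the 9 were well above background, and lay between -0.33 and 0.97 on the other 11 arrays. The mean of 9 mammary epithelial markers spanned 5.12-fold and that of 8 adipocyte markers 1.47-fold.

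Against this, the level of the respiratory chain and Krebs genes was nearly flat. The mean over the 42 members lay between 2.75 in NP 5a of day 21 and 3.14 in LP 4f of day 28, a range of 0.40 or 1.32-fold. By group it was 2.91 ± 0.14 in NP and 2.97 ± 0.07 in LP rats of day 21, and 2.86 ± 0.08 in NP and 2.99 ± 0.14 in LP rats of day 28 (mean ± SD, n = 3 rats each). The groups overlapped on both days. Complex I, complex II, complex III and the ATP synthase each spanned between 1.33-fold and 1.35-fold over the 12 arrays, the Krebs enzymes 1.44-fold and complex IV 1.46-fold. Cytochrome c, a single gene, spanned 1.69-fold. The 39 other subunits of the chain on the array spanned 1.30-fold, enzymes of fatty acid oxidation 1.33-fold, assembly factors 1.18-fold and regulators 1.16-fold. A small range was therefore not particular to the members, although the 8 tissue isoforms and carriers spanned 5.41-fold.

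**Figure D1:**
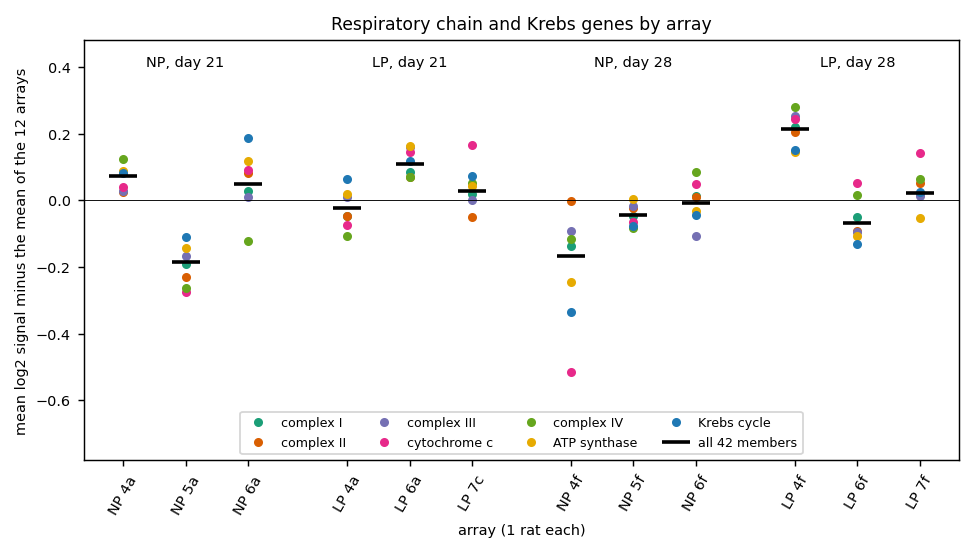
Mean log2 signal of the members of each complex (coloured points) and of all 42 members (black bars) on the 12 arrays, each minus its mean over the arrays. The 7 groups of genes mostly lie on the same side of 0 on an array, lowest in NP 5a of day 21 and NP 4f of day 28 and highest in LP 4f of day 28, and nearly all points lie within 0.40 of 0 (cytochrome c in NP 4f is the exception).

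The spread between rats of the same group was small as well. The within-group SD had a median of 0.14 over the 42 members, from 0.09 to 0.28. It was 0.17 over the 9985 tested probes of the members' signal range and 2.53 over 21 skeletal muscle markers. The 10 members whose probe was printed in 10 spots allowed a comparison with the error within an array. Their spots differed by an SD of 0.035 to 0.055 on the same array, whereas rats of the same group differed by 0.109 to 0.238.

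The first question of the design was whether the diet of the dam changed these genes in the offspring at day 21. No member passed (0 of 42, against 0% of the 23209 probes tested). At an unadjusted p under 0.05 there were also 0 members, against 4.36% of all probes. The median difference of LP minus NP was 0.06, with 35 of 42 members higher in LP. Over all probes the median was 0.01 and 52.2% were higher. The 95% intervals of all members ran from 0.742-fold to 1.72-fold, so that no member's interval reached a 2-fold change in either direction.

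The members with the lowest p at day 21 were Cox5a, Uqcrq and Sdhc. Cox5a, a nuclear subunit of complex IV, was at 4.10, 3.74 and 3.89 in the 3 NP rats and at 4.00, 4.21 and 4.09 in the 3 LP rats. NP 4a lay within the LP range, so that the groups overlapped. The difference was 0.19 (SE 0.13, adjusted p = 0.862 by limma, n = 3 and 3). Uqcrq, a small subunit of complex III, was at -1.32, -1.37 and -1.69 in NP and -1.19, -0.93 and -1.33 in LP rats, with a difference of 0.31 (SE 0.21, adjusted p = 0.862 by limma, n = 3 and 3). Its LP rat 7c fell among the NP rats. Sdhc, one of the membrane anchors of complex II, was at 2.12, 1.74 and 2.02 in NP and 1.99, 2.20 and 2.12 in LP rats, and differed by 0.14 (SE 0.12, adjusted p = 0.892 by limma, n = 3 and 3). None of the 3 differences passed. Without NP 5a the difference was 0.10 for Cox5a and 0.03 for Sdhc, and without NP 6a that of Uqcrq was 0.19.

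At day 21 the direction of the group as a whole depended on 1 rat. Without NP 5a, the rat with the lowest mean level, the median difference was -0.01 and 18 of 42 members were higher in LP. By complex, 11 of 15 members of complex I were higher in LP, 2 of 4 of complex II, 6 of 6 of complex III, 5 of 5 of complex IV, 4 of 5 of the ATP synthase, 6 of 6 of the Krebs cycle, and cytochrome c. Ndufv2, an iron-sulfur subunit of the NADH-binding module of complex I, was the only member with all LP rats above all NP rats at this day (1 of 42, against 5.54% of probes). It was at 3.25, 3.21 and 3.23 in NP and 3.33, 3.31 and 3.33 in LP rats, with LP minus NP at 0.10 (SE 0.12, adjusted p = 0.927 by limma, n = 3 and 3).

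At day 28 the median difference of LP minus NP was 0.13, and 40 of 42 members were higher in LP, against 42.7% of all probes, whose median was -0.05. The 2 exceptions were Ndufv1 of complex I at -0.05 and Sdha, the flavoprotein of complex II, at -0.02. No member passed (0 of 42, against 0% of all probes), and 0 had an unadjusted p under 0.05, against 8.07% of all probes. The 95% intervals ran from 0.762-fold to 1.60-fold. Medians by complex were 0.11 for complex I, 0.05 for complex II, 0.12 for complex III, 0.13 for complex IV, 0.08 for the ATP synthase and 0.15 for the Krebs enzymes.

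**Figure D2:**
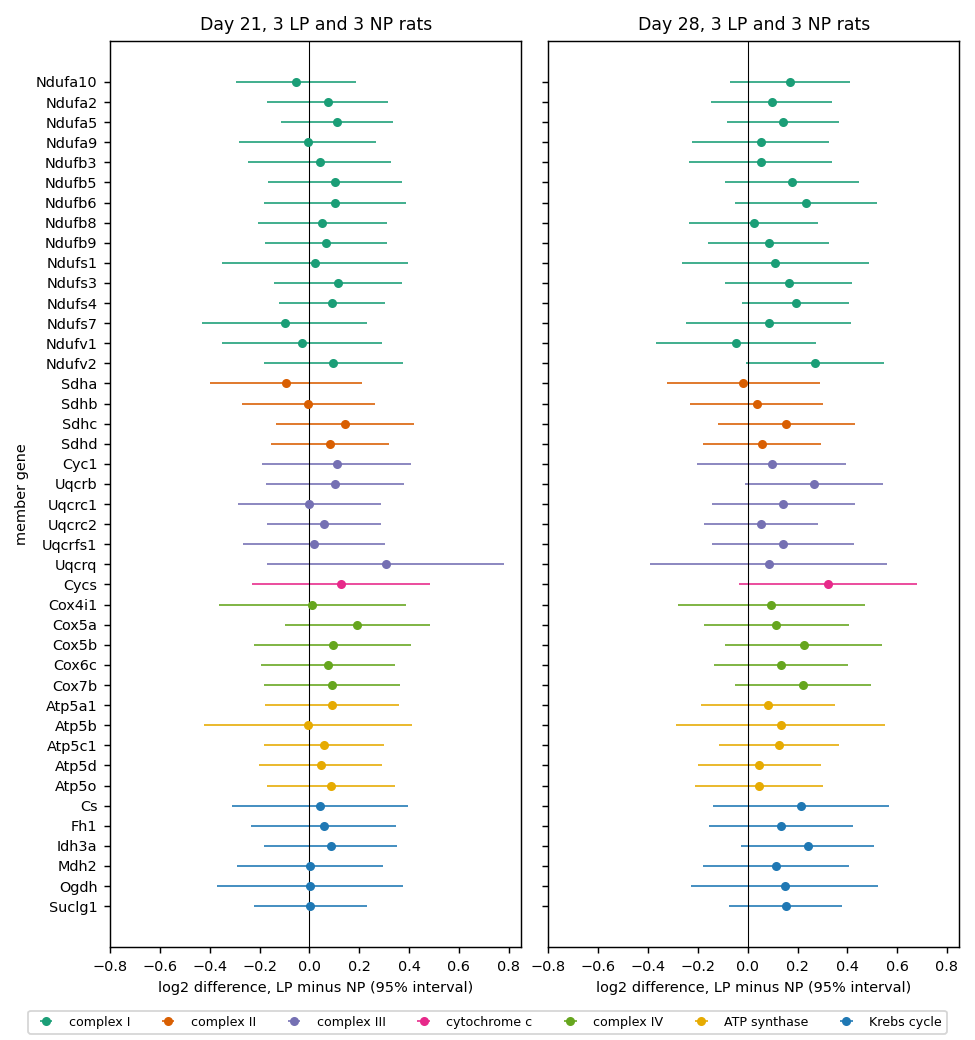
Log2 difference of LP minus NP for each of the 42 members at day 21 (left) and day 28 (right), with 95% intervals from limma, coloured by complex. Points lie to the right of 0 for 35 members at day 21 and 40 at day 28, and every interval includes 0.

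The lowest p values at day 28 belonged to Ndufv2, Uqcrb and Cycs. Ndufv2 was at 2.87, 3.39 and 3.26 in the NP rats and at 3.52, 3.40 and 3.41 in the LP rats, and differed by 0.27 (SE 0.12, adjusted p = 0.581 by limma, n = 3 and 3). Every LP rat lay above every NP rat, and the difference came largely from NP 4f. Without NP 4f it was 0.12. Cycs, the electron carrier between complexes III and IV, was at 2.76, 3.21 and 3.32 in NP and 3.52, 3.33 and 3.41 in LP rats, with LP minus NP at 0.32 (SE 0.16, adjusted p = 0.581 by limma, n = 3 and 3). Here too the groups did not overlap, NP 6f and LP 6f were close, and without NP 4f the difference was 0.15. The second Cycs probe differed by 0.34 and the probe used by 0.32. Uqcrb, a subunit of complex III near the quinone site, was at 3.71, 4.01 and 3.93 in NP and 4.27, 3.99 and 4.17 in LP rats, with a difference of 0.27 (SE 0.12, adjusted p = 0.581 by limma, n = 3 and 3). Its NP rat 5f lay above LP 6f, so that the groups overlapped, and its weaker probe differed by 0.20 at this day. Without NP 4f the difference was 0.18.

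In all, 5 of 42 members had every LP rat above every NP rat at day 28, against 4.41% of probes. They were Ndufa5, Ndufa10 and Ndufv2 of complex I, Cycs, and Cox7b of complex IV. Ndufa5, an accessory subunit of complex I, was at 4.18, 4.22 and 4.28 in NP and 4.43, 4.31 and 4.37 in LP rats. Ndufa10, another accessory subunit, was at 1.57, 1.55 and 1.59 in NP and 1.77, 1.73 and 1.71 in LP rats, so that the NP rats were within 0.04 of each other and the LP rats within 0.06. Cox7b was at 3.08, 3.31 and 3.41 in NP and at 3.61, 3.41 and 3.44 in LP rats, where NP 6f and LP 6f nearly touched.

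**Figure D3:**
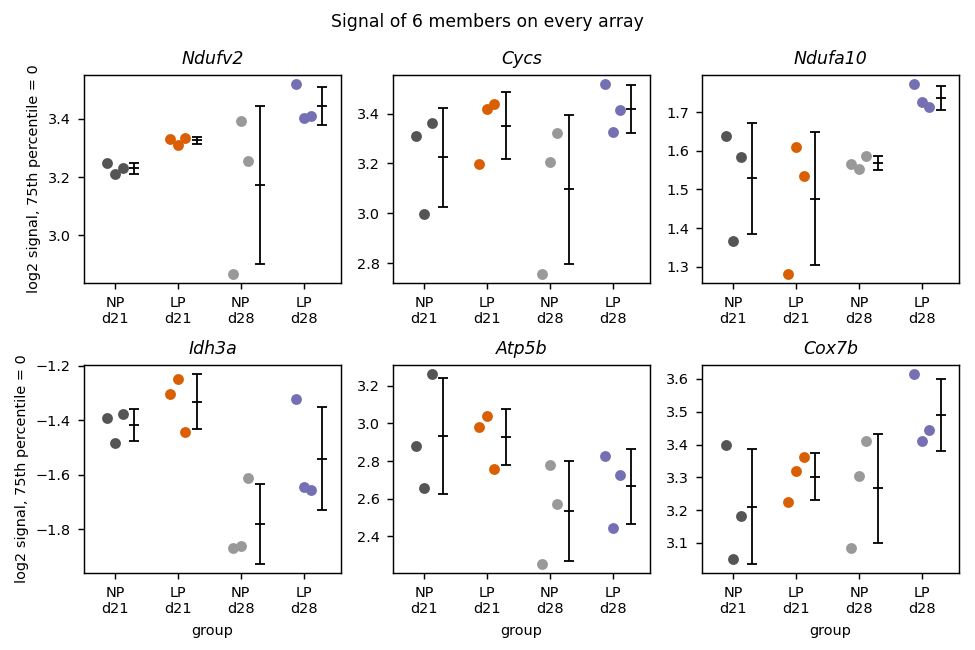
Log2 signal of 6 members on every array, with the mean and SD of 3 rats beside the points of each group. Ndufv2, Cycs, Ndufa10 and Cox7b show LP rats of day 28 above NP rats of day 28, and Idh3a and Atp5b lie lower at day 28 than at day 21 in most rats.

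As at day 21, single rats weighed on the whole group. LP 4f had the highest mean level of all 12 rats, and without it the median difference at day 28 was 0.04 with 27 of 42 members higher in LP. Without LP 6f, the muscle-rich rat, the median was 0.18 and 42 of 42 were higher, and without NP 4f it was 0.08 and 37 were higher. With the muscle index as a covariate the median at day 28 was 0.13 and 40 of 42 were higher. Markers of other cells had values on opposite sides. All 9 epithelial markers were higher in LP at both days, with medians of 0.77 and 0.64, and all 9 lymphocyte markers lower, with medians of -2.30 and -0.61, whereas 0 of either list passed. Without LP 6a the lymphocyte median of day 21 was -0.24, and without NP 4f the epithelial median of day 28 was 0.23. The epithelial median of day 21 was 0.45 without LP 6a and 1.16 without LP 7c. The summed signal of the epithelial markers, in log2, was between 3.79 and 4.76 in NP and between 4.16 and 5.66 in LP rats at day 21, and between 3.45 and 4.64 in NP and between 4.78 and 4.94 in LP rats at day 28. That of the lymphocyte markers was between 4.79 and 5.15 in NP and between 3.96 and 4.68 in LP rats at day 28. The part of these cells in the members' differences was not tested. In whole tissue, fewer cells of a type and less RNA per cell cannot be told apart.

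The difference of LP minus NP was larger at day 28 than at day 21 by a median of 0.08, and 0 of 42 members passed the test of that change (0% of all probes). Over both days, 35 members were higher in LP at each day and 2, Ndufv1 and Sdha, lower at each. The 5 that changed sign were Ndufa9, Ndufa10, Ndufs7, Sdhb and Atp5b, of which Ndufa10 differed by -0.05 at day 21 and by 0.17 at day 28.

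The second comparison was between day 21, the age at weaning, and day 28 in rats of the same diet group. In NP rats 58 probes passed (0.25% of all tested), and 0 members were among them. The median difference of day 28 minus day 21 was -0.06, with 16 of 42 members higher at day 28, against a median of 0.03 and 55.6% of probes higher. With an unadjusted p under 0.05 there was 1 member, Idh3a, against 12.8% of probes. In LP rats the median was 0.03 with 28 of 42 members higher, against -0.02 and 47.0% of probes. No member passed (0% of all probes did), and 1 member, Ndufa10, had an unadjusted p under 0.05, against 10.1% of probes.

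These medians moved with the scaling of the arrays. With quantile normalisation in place of the 75th percentile, the median was -0.13 in NP and -0.03 in LP rats, and the members higher at day 28 were 7 and 11 of 42. Without NP 5a of day 21, 6 members were higher at day 28 in NP rats, and without LP 4f of day 28, 12 were higher in LP rats. In the other direction, without NP 4a of day 21 the count in NP rats was 21, at a median of 0.00, and without LP 6f of day 28 the count in LP rats was 34, at a median of 0.08. The order of the complexes is free of a factor common to all genes of an array, but not of one that varies with brightness. Medians by complex were not taken under quantile normalisation. In both diet groups the Krebs enzymes had the lowest median, at -0.22 in NP and -0.13 in LP rats, and complex IV the highest, at 0.06 and 0.10. Complex II was at 0.03 and 0.05, complex I at -0.04 and 0.04, complex III at -0.07 and 0.03, and the ATP synthase at -0.10 and -0.05. None of these differences between complexes was tested.

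Idh3a, the catalytic subunit of the NAD-dependent isocitrate dehydrogenase, was at -1.39, -1.48 and -1.38 in NP rats of day 21 and at -1.87, -1.86 and -1.61 in NP rats of day 28. Every rat of day 28 lay below every rat of day 21, in this member alone (1 of 42, against 7.02% of probes). The difference was -0.36 (SE 0.12, adjusted p = 0.255 by limma, n = 3 and 3). In LP rats Idh3a was at -1.30, -1.25 and -1.44 at day 21 and -1.32, -1.64 and -1.66 at day 28, a difference of -0.21 (SE 0.12, adjusted p = 0.603 by limma, n = 3 and 3). LP 4f remained at the level of day 21, and without it the difference was -0.32. Atp5b, the catalytic beta subunit of the ATP synthase, was at 2.88, 2.66 and 3.26 in NP rats of day 21 and at 2.25, 2.78 and 2.57 in those of day 28, a difference of -0.40 (SE 0.19, adjusted p = 0.410 by limma, n = 3 and 3). In LP rats it was at 2.98, 3.04 and 2.76 at day 21 and at 2.83, 2.44 and 2.73 at day 28, a difference of -0.26 (SE 0.19, adjusted p = 0.688 by limma, n = 3 and 3). Both sets of rats overlapped between the days, and without NP 6a of day 21 the difference in NP rats was -0.23. Uqcrc1, a core protein of complex III, was at 2.33, 2.19 and 2.58 in NP rats of day 21 and 1.97, 2.18 and 2.20 at day 28, and differed by -0.25 (SE 0.13, adjusted p = 0.449 by limma, n = 3 and 3). The days overlapped only through NP 5a and NP 6f, and without NP 6a of day 21 the difference was -0.14.

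The other Krebs enzymes showed the same sign in most cases. Ogdh, the first component of the 2-oxoglutarate dehydrogenase complex, was -0.32 in NP and -0.18 in LP rats. Its second probe gave -0.25 and -0.19. Mdh2, the mitochondrial malate dehydrogenase, was -0.24 and -0.13, and Fh1, the fumarate hydratase, -0.21 and -0.13. Fh1 was the only member with every LP rat of day 28 below every LP rat of day 21, as for 11.5% of probes. The exceptions were Cs, the citrate synthase, at 0.02 and 0.19, and Suclg1, a subunit of succinyl-CoA ligase, at -0.12 and 0.03. The intervals of all of these included 0 in both diet groups, with the exception of Idh3a in NP rats, whose adjusted p missed the threshold.

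In the other direction, Ndufa10 was at 1.28, 1.61 and 1.54 in LP rats of day 21 and at 1.77, 1.73 and 1.71 in LP rats of day 28. The ages did not overlap, LP 4a was the lowest rat, and the difference was 0.26 (SE 0.11, adjusted p = 0.465 by limma, n = 3 and 3). Without LP 4a it was 0.16. In NP rats Ndufa10 differed by 0.04. Cox7b was at 3.22, 3.32 and 3.36 in LP rats of day 21 and 3.61, 3.41 and 3.44 in those of day 28, without overlap, a difference of 0.19 (SE 0.12, adjusted p = 0.656 by limma, n = 3 and 3). Ndufv2, whose values are given above, was the other member with every LP rat of day 28 above every LP rat of day 21, and differed by 0.12. These were 3 of 42 members, against 7.18% of probes. Sdhd, an anchor of complex II, was the only member with every NP rat of day 28 above every NP rat of day 21 (1 of 42, against 11.7% of probes). It was at 3.23, 3.04 and 3.21 at day 21 and at 3.25, 3.24 and 3.31 at day 28.

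**Figure D4:**
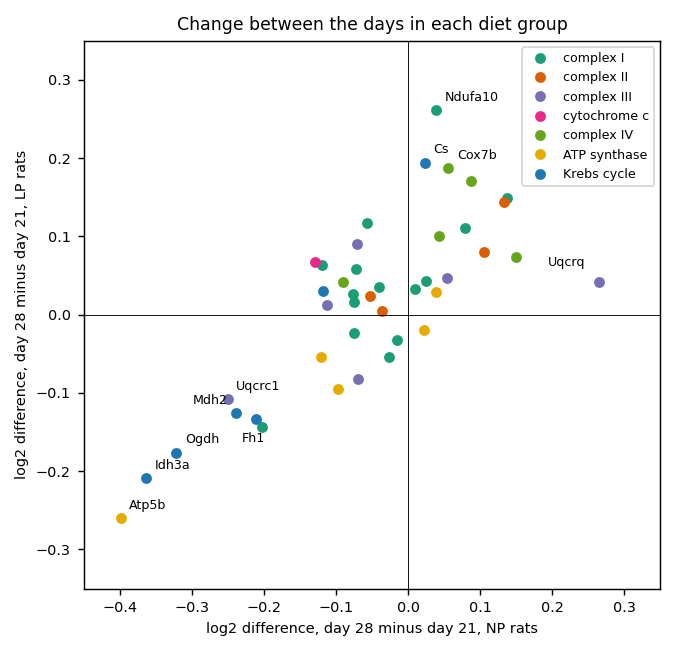
Log2 difference of day 28 minus day 21 for each member in NP rats (horizontal axis) and in LP rats (vertical axis), which share no arrays, coloured by complex. Of the 42 members, 13 were lower at day 28 in both diet groups, 15 higher in both and 14 of opposite sign, and Atp5b, Idh3a, Ogdh, Mdh2 and Fh1 lie at the lower left.

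The brightest member of each complex served as a further example of how little these genes varied. Over the 12 arrays Ndufb8 of complex I lay between 4.58 and 4.93, Sdhd between 3.04 and 3.47, Cyc1 (cytochrome c1 of complex III) between 4.20 and 4.70, and Cox4i1, the regulatory subunit of complex IV, between 4.89 and 5.52. Atp5a1, the alpha subunit of the ATP synthase, lay between 5.63 and 6.04 and Suclg1 between 4.22 and 4.51. The widest range among all members was that of Atp5b, at 1.01, and the narrowest that of Suclg1, at 0.29.

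Skeletal muscle is rich in mitochondria, and its content differed widely between these arrays. Each gene was therefore fitted with a slope on the muscle index beside the group means. The slope of a gene is the log2 change per 1 log2 unit of the index. No member passed (0 of 42), against 136 probes or 0.586% of all tested. The median slope of the members was 0.00, and single slopes ran from -0.03 for Cs to 0.02 for Ndufa10. These 2 and Ndufa5, at 0.01, had the lowest p, and each had an SE of 0.02 and an adjusted p of 0.9996 by limma. Cs was at 2.38, 2.0 and 2.35 in NP and 2.35, 2.17 and 2.33 in LP rats of day 21, and at 2.10, 2.31 and 2.38 in NP and 2.72, 2.18 and 2.54 in LP rats of day 28. Ndufa5 was at 4.24, 4.02 and 4.18 in NP and 4.12, 4.39 and 4.27 in LP rats of day 21. Over the whole range of the index, the 95% intervals of the members allowed a change between -0.67 (Uqcrq) and 0.57 (Cycs) on the log2 scale, less than 2-fold in either direction, while the index itself changed by 7.14. The sign of the small slopes was not stable. On the arrays of day 21 alone the median slope was 0.03, with 40 of 42 positive, and on those of day 28 alone it was -0.02, with 1 of 42 positive.

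Among the tissue isoforms and carriers of the same pathway, some followed the index. Of the 8 tested, 3 passed, all with a positive slope. Cox6a2, the heart and muscle form of subunit 6a of complex IV, was at 0.20, -0.96 and 1.76 in NP and -2.38, 2.26 and -0.55 in LP rats of day 21, and at -1.31, -0.57 and -0.68 in NP and -2.35, 2.25 and -1.80 in LP rats of day 28. It was highest in the 3 muscle-rich rats, LP 6a, LP 6f and NP 6a. Its slope was 0.68 (SE 0.03, adjusted p = 4.87e-06 by limma), which over the range of the index came to 28.7-fold. Ckmt2, the mitochondrial creatine kinase of muscle, had a slope of 1.23 (SE 0.06, adjusted p = 7.21e-06), and was well above background on 10 of the 12 arrays, all but the 2 rats poorest in muscle, LP 4a of day 21 and LP 4f of day 28, where its values are only bounds. Cox8b, the muscle form of subunit 8, had a slope of 0.71 (SE 0.10, adjusted p = 0.0153 by limma), with LP 7f lowest at -5.73. Without single arrays the slope lay between 0.61 and 0.78, and the adjusted p rose to 0.0520 without NP 6a, to 0.0601 without LP 6a and to 0.194 without LP 6f. On the arrays of day 28 alone the slope was 0.82 with an adjusted p of 0.574 by limma. Cox6a2 and Ckmt2 kept an adjusted p under 0.05 without any 1 array and on the arrays of either day alone. The adenine nucleotide carriers Slc25a4 and Slc25a5, of which the first is the main form in muscle, had slopes of 0.03 and 0.01, and neither passed. Cox4i2, Cox6b2 and Ckmt1b had slopes of -0.01, 0.02 and 0.06 and did not pass either.

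**Figure D5:**
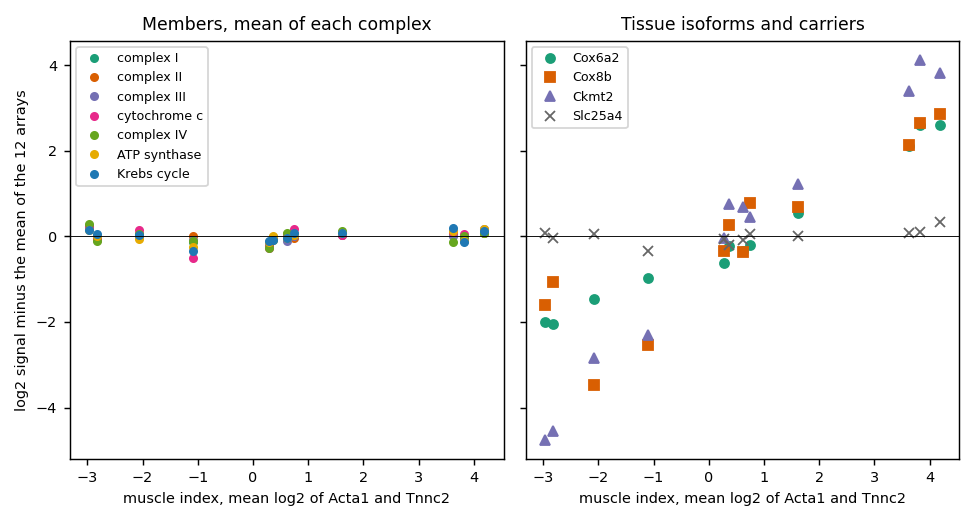
Log2 signal minus the mean of the 12 arrays, plotted against the muscle index (mean log2 signal of Acta1 and Tnnc2), for the mean of the members of each complex (left) and for 4 genes of muscle mitochondria (right). The members stay near 0 over the 141-fold range of the index, whereas Cox6a2, Cox8b and Ckmt2 rise with it and Slc25a4 does not.

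Of 21 skeletal muscle markers, 19 passed the slope test, including Acta1 and Tnnc2, which make up the index and were bound to do so. The exceptions were Tnnt1 and Tnni1, troponins of slow fibres, with slopes of 0.32 and 0.57. Of the 21 muscle markers, 1 was higher in LP at day 21 and 11 at day 28, and 0 passed in either comparison. In NP rats 0 of 21 and in LP rats 1 of 21 were higher at day 28, with medians of -1.83 and -0.95, and 0 passed. Without LP 6a of day 21 the median in LP rats was 0.70.

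The remaining genes of the pathway, from lists of names, were read in the same way. None of the 39 other chain subunits, 15 other enzymes of the Krebs cycle and pyruvate dehydrogenase, 15 assembly factors, 17 regulators and 16 enzymes of fatty acid oxidation passed in any comparison or on the slope. The other chain subunits were higher in LP in 34 of 39 at day 21 and in 31 of 39 at day 28, with medians of 0.08 and 0.12. Ndufa4, a subunit of complex IV once assigned to complex I, had the lowest p among them at day 28, at 4.01, 3.88 and 4.24 in NP and 4.45, 4.29 and 4.38 in LP rats. Cox7c, a subunit of complex IV, was at 0.26, 0.02 and -0.08 in NP rats of day 21 and 0.36, 0.91 and 0.77 in NP rats of day 28, a difference of 0.61. Bcs1l, a chaperone that inserts the Rieske protein into complex III, was lower at day 28 in both diet groups by -0.47 and -0.41 (adjusted p = 0.170 and 0.349). The regulators were higher in LP in 5 of 17 at day 21 and 3 of 17 at day 28, with medians of -0.04 and -0.11. Ppard, a nuclear receptor of fatty acid metabolism, had the lowest p among them at day 28, with a difference of 0.50. The slope of Ppargc1a, the coactivator PGC-1alpha that drives mitochondrial biogenesis, was -0.16 (SE 0.09, adjusted p = 0.9996 by limma). Only between 1 and 3 of 6 brown fat markers, Ppargc1a among them, were well above background on an array. The mitochondrial transcription factor Tfam had a slope of 0.00. The enzymes of fatty acid oxidation had medians of -0.02 and 0.04 for LP minus NP, and of -0.12 in NP and -0.02 in LP rats for day 28 minus day 21.

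Among the lists of other cells, 1 of 3 brown fat markers tested passed on the slope. This was Ucp1, the uncoupling protein of brown fat mitochondria, with a slope of 0.52 (adjusted p = 0.0482 by limma), measured above background on 8 of 12 arrays. This call was lost whichever of the 12 arrays was left out (adjusted p between 0.0544 and 0.252 by limma). The other 2, Cidea and Ppargc1a, had slopes of -0.08 and -0.16 and did not pass, so that the median of the 3 was -0.08. Of the liver markers 0 of 7, of the adipocyte markers 0 of 8, of the epithelial and lymphocyte markers 0 of 9 each, and of the erythroid markers 0 of 4 passed on the slope. Their median slopes were, in the same order, 0.26, -0.01, 0.07, -0.35 and 0.02. All 7 liver markers had a positive slope and all 9 lymphocyte markers a negative one. Without LP 6a of day 21 the lymphocyte median was -0.01. In the comparisons of groups, 1 gene of all these lists passed, the erythroid Alas2, the first enzyme of haem synthesis in red cell precursors. It was lower at day 28 in NP rats, with a difference of -1.90 (adjusted p = 0.0375 by limma), and lost its call too whichever array was left out (adjusted p between 0.0533 and 0.172 by limma). All 4 erythroid markers were lower at day 28 in both diet groups, with medians of -0.70 in NP and -0.89 in LP rats. Their part in the changes of the members between the days was not tested.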

How the data were processed

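Scanner output of Agilent Feature Extraction 10.7.3.1 was deposited by the authors for each array, holding a processed intensity per spot after subtraction of background and detrending on the array, and not normalised across arrays. A signal table, likewise deposited by the authors, holds the same values times 1 constant per array (deviation at most 6.56e-05 of the value) and served as an alternative. Every column of sample values was used (0 left unused).

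From the intensity, control spots (4259 per array) and outlier spots were removed, log2 was taken relative to the array's 75th percentile, and spots of a probe were averaged. A probe was tested if at least 0.5 of its spots were well above background on 3 or more of the 12 arrays. This held for 23209 of 30367 probes. Tests were made with limma 3.58.1 in R 4.3.3 and data.table version 1.17.8 (lmFit, eBayes, two-sided, 1 mean per group), and the muscle index was added for the slopes. The estimated prior degrees of freedom were 1.95. For 5 members with several probes the brightest was taken. Figures were drawn with matplotlib 3.10.9. The fits were also run on simulated data, with changes larger than those of the members and with noise independent between probes. Those runs cannot tell whether changes as small as the members' would be found. The number of arrays, 3 per group, limits the precision. The analysis with Rosetta Resolver and IPA was not repeated.

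Groups came from the sample labels, and gene names from the array annotation, placed on rn4. The members and all lists were chosen with earlier results of these data known. Values on the arrays compared were given for the 3 members with the lowest p of each comparison of diets or days. Of the 3 members with the lowest p of the slope, Cs and Ndufa5 were given on every array. Ndufa10 was given on all but those of NP rats of day 21. Acta1 and Tnnc2 were given on every array. Ranges, in place of all values, were given for the brightest member of each complex, and from other lists the gene with the lowest p, the tissue isoforms and the regulators could be named. Genes named because their groups did not overlap, the remaining Krebs enzymes and exceptions to counts were picked after their values were seen. The alternatives changed the scaling (quantile, median), the background (normexp, offset 50), the filter for dim probes (none, or all 12 arrays), the probe summary, the treatment of outlier spots, the variance model (intensity trend, robust), the signal table, the arrays in the fit, or the covariates (replicate number, row on the slide, muscle index). For the slope they also changed the index or dropped the group means.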

Additional observations from a re-analysis of the deposited data

How the results depend on the processing

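No member passed in any of the 5 group comparisons or on the slope under any alternative that was run, each left-out array included. For the change between the days, a fit of only the groups compared is the fit reported and was not run. Medians of LP minus NP lay between -0.01 and 0.12 at day 21 and between 0.04 and 0.18 at day 28 over all alternatives, both ends without a single array. With the row on the slide as a covariate they were 0.10 and 0.17. The effect of the row in that fit comes from LP rats alone, since all NP arrays lay on the same row. For day 28 minus day 21 the medians lay between -0.13 and 0.00 in NP and between -0.04 and 0.08 in LP rats, so that their sign was kept in neither. The median slope of the members was 0.030 on the arrays of day 21, -0.023 on those of day 28, and between -0.0036 and 0.028 without single arrays, the latter without LP 6f. The slope of Cs lay between -0.043 and 0.0026 without single arrays, and turned sign without LP 6f. On the arrays of day 28 alone the slopes of Ndufa10 and Ndufa5 were -0.0031 and -0.012. The slope of Cox8b was 0.70 with an adjusted p of 0.917 with the replicate block, and on the arrays of day 28 the adjusted p was 0.574. Of the calls outside the members, the adjusted p of Ucp1 was 0.0694 with normexp background, where the slope was 0.23, and 0.99996 with the replicate block. For Alas2 it was 0.208 with only the groups compared, 0.0962 with the muscle index and 0.150 with the block. The causes were not tested. The numbers in the labels were not taken to pair the rats, since whether they mark litters is not known. Deviations of rats with the same number correlated between 0.09 and 0.13 across diets and between -0.06 and 0.38 across days. Rats of different numbers were not compared, so that these correlations cannot decide whether the numbers mark litters. With the replicate block the median of LP minus NP was 0.04 at day 21 and 0.11 at day 28, with 28 and 37 of 42 members higher, the median slope was -0.0063, and 0 members passed. For LP minus NP and the slope, that block joined NP and LP rats of the same number, which had different dams. It is therefore no check on litters there.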
